A study of Mus musculus with 4 samples.

Results

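The miR-148 family, which includes miR-152, and the miR-130 family, which includes miR-301, are sets of microRNAs (miRNAs) with related seeds, the short stretch near the 5′ end of a miRNA that pairs with its target mRNAs. They were followed in the liver of WT and *Clock* mutant mice. Members were taken by name from the array's annotation, with their star (passenger) strands left out: mmu-miR-148a, mmu-miR-148b and mmu-miR-152 in the first family, and mmu-miR-130a, mmu-miR-130b, mmu-miR-301a and mmu-miR-301b in the second. These are 7 of the 611 mouse miRNAs on the array. The WT mice and the mice of the Clock△19 line, whose CLOCK protein lacks part of its transactivation domain, were males 6 to 8 weeks old. They were housed singly in 12 h of light and 12 h of dark for 2 weeks, with food and water at will, and killed at ZT2 or ZT14 (h after lights on). Zygosity of the mutants and the background strain are not given in the sources used here. RNA from 3 mice was mixed for each genotype and time point, and each mixture was hybridized to 1 array, which gave 4 arrays in all and no replicate of any condition. Spots of 1 array measure the technical spread within that array only.

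A miRNA lowers the translation and stability of mRNAs whose 3′ ends pair with its seed, and miRNAs with a common seed share many predicted targets. In liver, miR-148a is known to act on the LDL receptor and the cholesterol exporter ABCA1, and miR-148 and miR-152 on DNA methyltransferases. The miR-130 family is known to act on PPARγ, the regulator of fat cell genes. Of that family, miR-130b and miR-301b are known to act on the LDL receptor and ABCA1, as miR-148a does. CLOCK is the partner of BMAL1 in the activator at the core of the circadian clock, which sets daily rhythms of liver metabolism.

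The mature sequences show how the members are related, so they are printed 5′ to 3′ from RefSeq (GRCm38.p6), with bases 2 to 8, the seed, in capitals. An entry was found for 6 of the 7 members. The array's names carry no arm, and the 3′ arm was taken for each.
mmu-miR-148a: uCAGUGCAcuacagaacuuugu
mmu-miR-148b: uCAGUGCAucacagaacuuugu
mmu-miR-152: uCAGUGCAugacagaacuugg
mmu-miR-130a: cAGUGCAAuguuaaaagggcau
mmu-miR-130b: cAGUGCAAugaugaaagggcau
mmu-miR-301a: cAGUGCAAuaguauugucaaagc

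Both seeds lie on a common run of 7 bases, CAGUGCA, which starts at base 2 in mmu-miR-148a, mmu-miR-148b and mmu-miR-152 and at base 1 in mmu-miR-130a, mmu-miR-130b and mmu-miR-301a. Counted from 1 at the 5′ end, mmu-miR-148b differs from mmu-miR-148a by C9U and U10C, and mmu-miR-152 differs from mmu-miR-148a by C9U, U10G and U20G over the 21 bases they share in length. The substitutions U11A and A13G separate mmu-miR-130b from mmu-miR-130a. Past the seed mmu-miR-301a is the most distant of the group, with 10 of 22 bases unlike those of mmu-miR-130a. Among the 393 of the array's 611 mouse miRNAs with a RefSeq entry by name, 1 other had the seed of the miR-130 family, mmu-miR-721.

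In GRCm38.p6, mmu-miR-148a is at chr6:51269829-51269850 on the minus strand, inside the predicted gene Gm38821. A pair of paralogs that encode a subunit of the COPI vesicle coat hold the other members of its family: mmu-miR-148b is at chr15:103285185-103285206 inside *Copz1*, and mmu-miR-152 is at chr11:96850439-96850459 inside *Copz2*, both on the plus strand. In the second family mmu-miR-130a is at chr2:84741116-84741137 on the minus strand, with no annotated gene around its hairpin. The site of mmu-miR-301a is chr11:87113054-87113076 on the plus strand, inside *Ska2*, a gene of the spindle and kinetochore. A joint locus on the minus strand of chromosome 16, inside 2610318N02Rik, holds both mmu-miR-130b, at chr16:17124071-17124092, and the hairpin of mmu-miR-301b, with 257 bases between their hairpins.

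Levels are given as the mean background-subtracted intensity of a miRNA's spots, as a percent of the 75th percentile of its array taken over 123 mouse miRNAs that every array detected, with the SD of spots within a probe. A level may be set only against the same miRNA on another array, because probes differ in brightness. Each miRNA had 20 spots, over 2 probes for every member but mmu-miR-301b, which had 4. The arrays detected 138 to 193 mouse miRNAs, with the most on the WT array at ZT2. That array also stood apart in that it detected 3 of 4 muscle miRNAs (mmu-miR-1, mmu-miR-133a and mmu-miR-133b), which the other arrays did not detect, and the genotype comparison at ZT14 and the time comparison in the mutant, given for each member, do not use it. Both of those comparisons use the mutant array at ZT14. The hepatocyte markers mmu-miR-122, mmu-miR-192 and mmu-miR-194 were detected on all 4 arrays. In bulk liver RNA, fewer cells of a type and less of a miRNA per cell cannot be told apart.

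The scanner software detected 5 of the 7 members on the WT and *Clock* mutant arrays at ZT2, 4 on the WT array at ZT14 and 5 on the *Clock* mutant array at ZT14. On all 4 arrays mmu-miR-148a, mmu-miR-148b, mmu-miR-152 and mmu-miR-130a were detected. The WT array at ZT14 did not detect mmu-miR-301a, and none detected mmu-miR-130b or mmu-miR-301b. Thus both members of the joint locus on chromosome 16 went undetected.

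In the miR-148 family, mmu-miR-148a was at 363% ± 23.7 (spot SD) in WT and 329% ± 9.26 in the *Clock* mutant on the ZT2 arrays, and at 303% ± 10.97 in WT and 283% ± 11.3 in the mutant on the ZT14 arrays. Both ZT2 levels lay above both ZT14 levels, and at each time the mutant lay below WT. Each step in that order was larger than the spread of the spots, and the whole range was 0.36 on the log2 scale, near the median range of 0.35 over the 123 miRNAs. The order depended on the scaling. With scaling by the median the range was 0.11, and the log2 ratios, ZT14 against ZT2, were -0.04 (WT) and -0.01 (mutant). With scaling by all mouse miRNAs they were 0.03 and 0.28, and the mutant lay above WT by 0.17 at ZT2 and 0.41 at ZT14. The arrays detected 138 to 193 of the 611 mouse miRNAs, so that this 75th percentile is set by signals near or below detection. Values under this scaling, here and below, carry that limit. Without the WT array at ZT2 the range was 0.22, beside a median of 0.30.

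The level of mmu-miR-148b was 5.73% ± 0.568 in WT and 5.96% ± 0.763 in the mutant on the ZT2 arrays, and 5.93% ± 0.921 in WT and 5.87% ± 0.488 in the mutant on the ZT14 arrays. No neighbours in the order of the 4 arrays differed by more than the spread of the spots. Its range of 0.06 was the narrowest of the 123 miRNAs. That place depended on how the values were made: the brightest probe alone gave a range of 0.10, the 3rd narrowest, whereas scaling by the median gave 0.29, normexp 0.40 and quantile normalization 0.89, the 18th widest. The signal came from a single probe. The brighter probe read 59.7, 57.9, 38.5 and 57.3 units before scaling on the arrays in the order above, and none of the other probe's spots was well above background on any array.

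For mmu-miR-152 the levels were 12.2% ± 1.18 in WT and 12.1% ± 0.966 in the mutant on the ZT2 arrays, and 10.4% ± 1.24 in WT and 10.4% ± 1.07 in the mutant on the ZT14 arrays. Both ZT2 levels lay above both ZT14 levels, with a step of 0.22 on the log2 scale (spot SD 0.19), and the genotypes at 1 time point differed by 0.01. That step did not hold under some other settings: with scaling by all mouse miRNAs the ZT14 level was higher, by 0.06 (WT) and 0.28 (mutant), with scaling by the median the log2 ratios were -0.02 and -0.01, and normexp gave 0.18 in WT. On every array most spots of both its probes were well above background.

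In the miR-130 family, mmu-miR-130a was at 193% ± 10.95 in WT and 141% ± 4.70 in the mutant on the ZT2 arrays, and at 144% ± 3.67 in WT and 115% ± 6.01 in the mutant on the ZT14 arrays. It was highest in WT at ZT2 and lowest in the mutant at ZT14, and the levels between, the mutant at ZT2 and WT at ZT14, differed by less than their spots (0.03 on the log2 scale, spot SD 0.06). The range was 0.74 on the log2 scale, the widest of the members detected on all arrays and the 28th widest of the 123 miRNAs. With scaling by all mouse miRNAs, which rests on signals near or below detection, it was 0.20, the narrowest of the 123. Without the WT array at ZT2 it was 0.33, the 54th widest, beside a median of 0.30. Its probes gave like readings: from WT to mutant the log2 ratio was -0.47 and -0.43 at ZT2, and -0.36 and -0.30 at ZT14.

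The level of mmu-miR-301a was 5.30% ± 0.782 in WT and 2.56% ± 0.677 in the mutant on the ZT2 arrays, and 2.65% ± 0.772 in WT and 2.58% ± 0.767 in the mutant on the ZT14 arrays, where the WT value was not a detected one. WT at ZT2 stood alone, and the scaled values of the other 3 arrays were alike but near background. Their mean signals were 12.9 units (mutant, ZT2), 9.004 (WT, ZT14) and 13.8 (mutant, ZT14). The negative control spots there were at 5.24 ± 3.86, 8.32 ± 4.33 and 9.72 ± 4.96 units (SD). Like scaled values therefore do not show like levels of this faint miRNA. Its brighter probe read 41.0 units ± 4.65 (WT) and 21.3 ± 4.03 (mutant) at ZT2, and 14.2 ± 2.67 (WT) and 20.8 ± 4.14 (mutant) at ZT14, against negative control spots that averaged 5.24 to 9.72 units. All 10 spots of that probe were well above background in WT at ZT2 and none was on any other array.

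**Figure D1:**
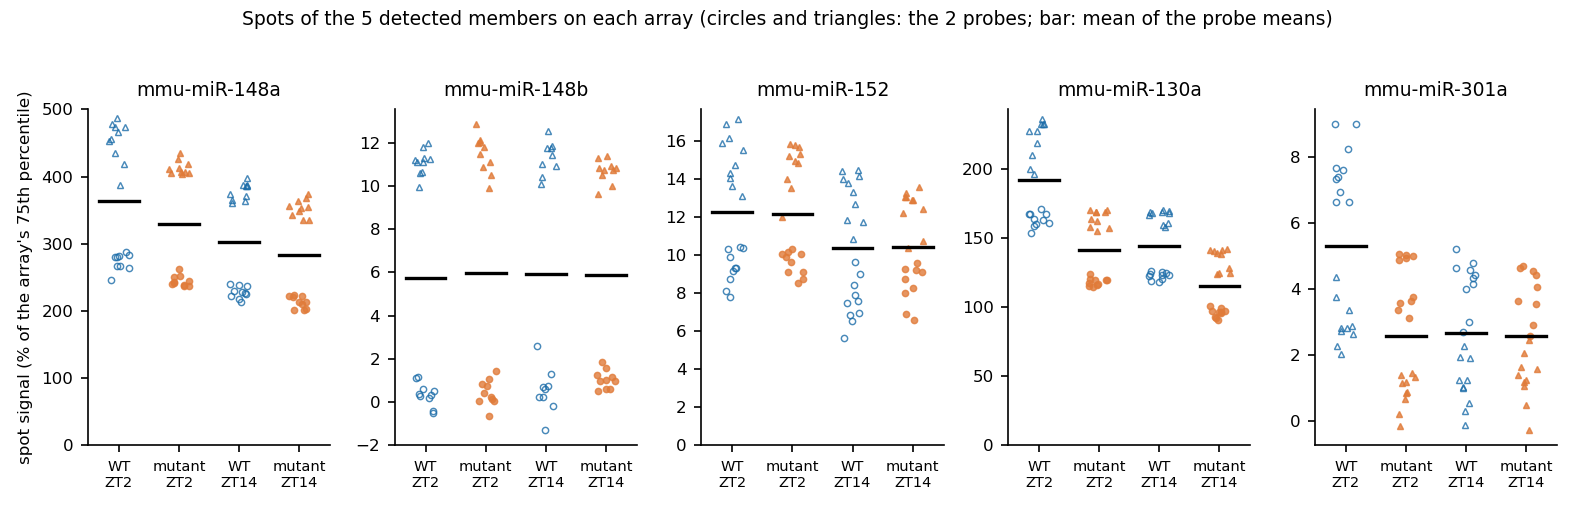
Signal of each spot, as a percent of the array's 75th percentile on a linear axis that differs between panels, for the 5 members detected on at least 1 array; blue open symbols are WT, orange filled symbols are the mutant, circles and triangles are the probes, and the black bar is the mean of the probe means. mmu-miR-130a is at 193% in WT at ZT2 and at 115% in the mutant at ZT14, mmu-miR-148b stays between 5.73% and 5.96%, and mmu-miR-301a is at 5.30% in WT at ZT2 and between 2.56% and 2.65% elsewhere.

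The undetected members lay below the negative controls. Mean signals of mmu-miR-130b were -0.913 (WT) and -3.77 units (mutant) at ZT2, and -3.29 (WT) and -1.86 units (mutant) at ZT14, and those of mmu-miR-301b were -5.13, -4.60, -3.61 and -2.84 units in the same order. None of their spots was well above background, so they were not detectable at this sensitivity. The passenger strands mmu-miR-148a* and mmu-miR-130b* were undetected on all 4 arrays too. So was mmu-miR-721, which has the seed of mmu-miR-130a, at 6.89 units in WT at ZT2, where the negative control spots were at 5.48 ± 3.69, and -2.90 to -1.85 elsewhere.

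**Figure D2:**
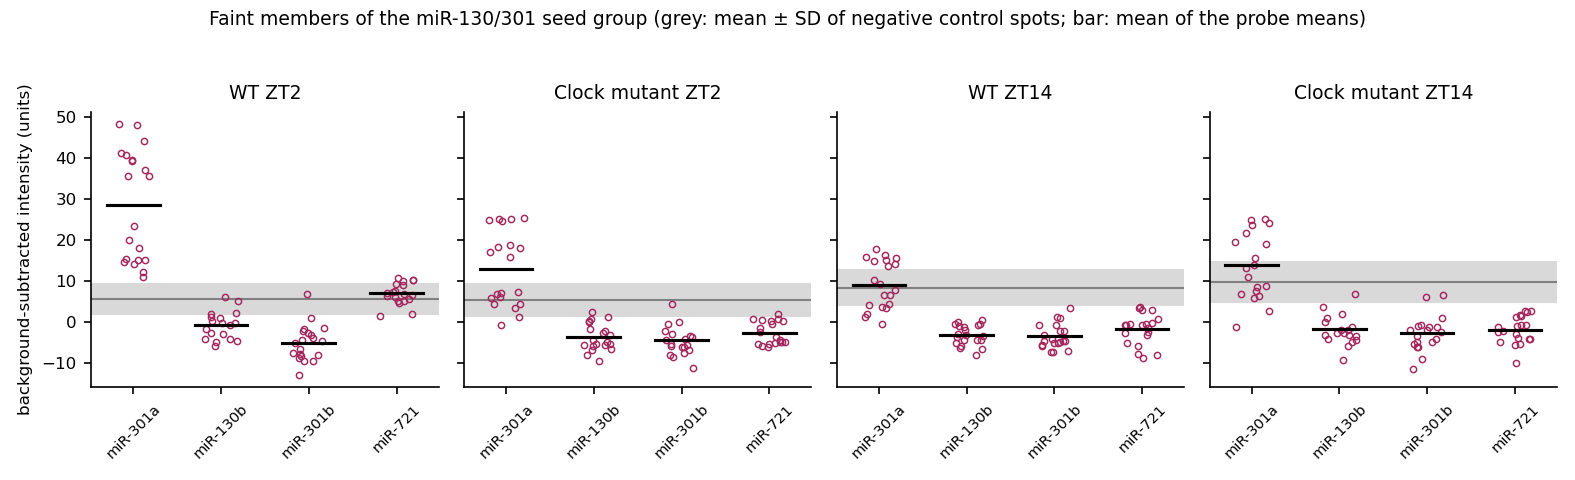
Background-subtracted intensity of each spot, in scanner units, for mmu-miR-301a, mmu-miR-130b, mmu-miR-301b and mmu-miR-721 on the 4 arrays; the grey band is the mean ± SD of the negative control spots and black bars are means of the probe means. The mean of mmu-miR-301a is 28.4 units in WT at ZT2 and 9.004 to 13.8 units elsewhere, while mmu-miR-130b and mmu-miR-301b stay below 0.

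The first question was whether the *Clock* mutation went with another level of these miRNAs. At ZT2, 1 of the 5 detected members was at least 2-fold apart, mmu-miR-301a, at -1.05 on the log2 scale (spot SD 0.44), mutant against WT. Undetected on every array, mmu-miR-130b and mmu-miR-301b could not be called in any comparison. Over all 194 mouse miRNAs detected on either array, 16 passed the same threshold, or 8.25%, all lower in the mutant. With 5 members such a count cannot be told from that share. The next member, mmu-miR-130a, was at -0.44 (spot SD 0.10), 1.36-fold lower, the 23rd lowest of the 160 miRNAs measured on both arrays. In the other family, mmu-miR-148a was at -0.14 (spot SD 0.10), mmu-miR-148b at 0.06 (spot SD 0.23) and mmu-miR-152 at -0.01 (spot SD 0.18). The median over the 160 miRNAs was -0.07. With 1 array per condition none of these ratios has a test.

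The 2-fold call of mmu-miR-301a at ZT2 depended on how the faint signals were handled. Its brighter probe alone gave -0.85 and the fainter one, counted as detected in WT only, -1.73. Background correction by normexp with an offset of 50 brought the ratio to -0.16, quantile normalization to -0.68 and scaling by all mouse miRNAs to -0.74.

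At ZT14, 0 of the 5 detected members were at least 2-fold apart between the genotypes, where 13.4% of the 157 miRNAs detected on either array were, all lower in the mutant. Here mmu-miR-130a was at -0.33 (spot SD 0.08), 1.25-fold lower in the mutant and the 22nd lowest of 123, though without scaling, or scaled by spike-ins or by all mouse miRNAs, it was higher in the mutant, by 0.33, 0.49 and 0.19. The miR-148 family lay at -0.10 (mmu-miR-148a, spot SD 0.08), -0.01 (mmu-miR-148b, spot SD 0.25) and 0.01 (mmu-miR-152, spot SD 0.23). No bound could be set for mmu-miR-301a, whose undetected WT signal was, after scaling, as high as the mutant's. The ratios of the 4 members measured at both times differed between ZT2 and ZT14 by 0.02 to 0.12 in size, each less than the SD of their spots.

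**Figure D3:**
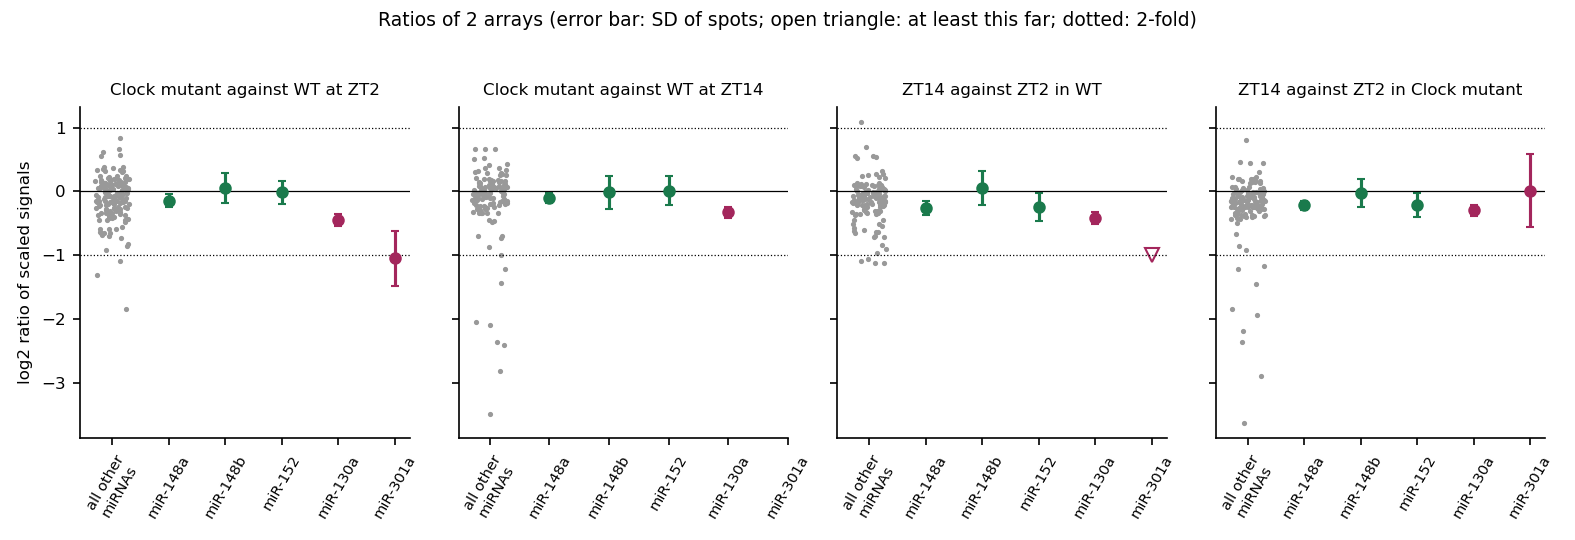
log2 ratio of scaled signals in the 4 comparisons; grey points are all other miRNAs measured on both arrays, coloured points are the members (green miR-148, red miR-130) with the SD of spots, the open triangle is a bound, and dotted lines mark 2-fold. mmu-miR-130a lies below 0 in all 4 panels, at -0.44, -0.33, -0.42 and -0.30, and mmu-miR-148b lies within its spot SD of 0 in each.

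Scaling shifted all miRNAs of an array together: at ZT14 the median mutant to WT ratio of the 123 measured miRNAs was -0.03 as reported, 0.63 without scaling, 0.78 with spike-ins and 0.48 with all mouse miRNAs. The mutant to WT ratio of mmu-miR-148a was also above 0 at ZT14 under these scalings, between 0.41 and 0.72, and at ZT2 it was 0.17 with scaling by all mouse miRNAs. With the log2 table that the authors deposited, mmu-miR-130a was higher in the mutant at both times, by 0.36 and 0.35. That table adds 1 number per array to the log2 of the summed detected probes, at ZT2 -4.18 in WT and -3.27 in the mutant. Relative to the median ratio of all measured miRNAs, mmu-miR-130a was at -0.29 at ZT14 and at -0.38 at ZT2. Of the 13 alternatives, 5 leave this distance as it is, since they move all miRNAs of an array alike or touch undetected ones only. Under the other 8, of which the authors' table only repeats the sum over detected probes, it lay between -0.49 and -0.10 at ZT14. At ZT2 it lay between -0.50 and -0.34.

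A difference between the ratios of 2 members on the same pair of arrays needs no scaling. The mutant to WT ratio of mmu-miR-130a minus that of mmu-miR-148a was -0.30 on the log2 scale at ZT2 (spot SD 0.14), and at ZT14 it was -0.23 (spot SD 0.11). Against mmu-miR-152 the differences were -0.43 (spot SD 0.20) and -0.33 (spot SD 0.24), and against mmu-miR-148b -0.50 (spot SD 0.25) and -0.31 (spot SD 0.27). These 6 differences share the ratios of mmu-miR-130a, and the SD of spots does not hold the spread between pools. The difference from mmu-miR-148a turned to 0.04 at ZT2 with quantile normalization, which ranks each array separately, and that from mmu-miR-148b to 0.06 at ZT14 with normexp.

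The second question was whether the families differed between morning and evening. In WT, 0 of the 5 detected members passed 2-fold between ZT14 and ZT2, with 7.73% of the 194 miRNAs detected on either array past it. The bound for mmu-miR-301a, undetected at ZT14, stopped just short, at 1.999-fold lower at ZT14. It is no firm limit, since it uses the undetected signal itself, whose spot SD was 0.42 on the log2 scale. On that scale it was -0.60 with quantile normalization and -2.25 with the sum over detected probes, and normexp gave no bound. The other log2 ratios, ZT14 against ZT2, were -0.42 for mmu-miR-130a (spot SD 0.09), -0.26 for mmu-miR-148a (spot SD 0.11), -0.24 for mmu-miR-152 (spot SD 0.22) and 0.05 for mmu-miR-148b (spot SD 0.27), beside a median of -0.12 over the 137 miRNAs measured on both arrays.

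In the *Clock* mutant too, 0 of the 5 detected members passed 2-fold between the times, with 13.5% of the 163 miRNAs detected on either array past it. The log2 ratio was -0.30 for mmu-miR-130a (spot SD 0.09), and both mmu-miR-148a (spot SD 0.07) and mmu-miR-152 (spot SD 0.19) were at -0.22. The ratios of mmu-miR-148b, -0.02 (spot SD 0.22), and of mmu-miR-301a, 0.01 (spot SD 0.57), were smaller than their spots. The median of the 140 miRNAs measured on both arrays was -0.16, and scaling by all mouse miRNAs turned the ratio of mmu-miR-130a to 0.20 and that of mmu-miR-148a to 0.28, and in WT the latter to 0.03. Quantile normalization put mmu-miR-148a at 0.12 in the mutant. With the authors' table both ratios were over 6 in both genotypes, and the columns of that table are offset from each other by 1 number per array. Relative to the median of all miRNAs, the time ratio of mmu-miR-130a lay at -0.29 (WT) and -0.14 (mutant). Under the 8 alternatives that can move it, it lay between -0.50 and -0.05 in WT and between -0.29 and -0.11 in the mutant. Of these 8, the authors' table only repeats the sum over detected probes. For mmu-miR-130a and the members below, the distance to the median is given in this way. For mmu-miR-148a it was -0.14 and -0.06, between -0.40 and -0.12 and between -0.15 and -0.03. For mmu-miR-152 it was -0.12 and -0.06, and in WT normexp turned it to 0.09.

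Only with both time points in 1 model did a genotype have more than 1 array. In that additive fit (limma, 1 residual degree of freedom, 123 miRNAs), the genotype difference of mmu-miR-130a was -0.39 (SE 0.13, Benjamini-Hochberg adjusted p = 0.42), and it was lower in the mutant in both pairs of arrays. Its time point difference was -0.36 (SE 0.13, limma adjusted p = 0.49). The other 3 members in the fit were at -0.12 (mmu-miR-148a), 0.02 (mmu-miR-148b) and -0.0017 (mmu-miR-152) for genotype, and at -0.24, 0.01 and -0.23 for time point, with limma adjusted p-values of 0.52 to 0.99. The fit called none of the members and 0% of the 123 miRNAs by either factor, with 10 miRNAs for genotype and 12 for time point at an unadjusted p under 0.05 in limma, of which mmu-miR-130a was the only member in each case. The samples are pools that share a slide, with 1 pool per condition. These p-values rest on how far the 4 arrays depart from additive effects, moderated over the miRNAs. They hold no estimate of the spread between pools of a condition.

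The array with the highest mmu-miR-130a and mmu-miR-301a, WT at ZT2, also had the highest signal of several miRNAs of other cells. Each sum below holds only the miRNAs detected on that array, so that the sums differ in their members. Leukocyte miRNAs, 3 of 5 detected, summed to 120% there and to 61.1% to 75.2% on the other arrays, with 2 detected. Of those detected on all arrays, mmu-miR-142-3p was at 78.0% there and 36.8% to 49.6% elsewhere, and mmu-miR-223 at 34.6% and 23.8% to 25.7%. Bile duct epithelial miRNAs, 4 of 5 detected, summed to 22.6% there and 8.11% to 15.4% elsewhere, with 2 or 3 detected. Of these, mmu-miR-200a was at 8.06% there and 3.85% to 5.53% elsewhere, and mmu-miR-200b at 9.30% and 4.26% to 6.78%. Muscle miRNAs, 3 of 4, summed to 30.8% there and were undetected elsewhere. Endothelial miRNAs (361% to 425%), stellate cell miRNAs (50.6% to 66.6%) and hepatocyte miRNAs (9602% to 12204%) varied less, and red blood cell miRNAs were highest in the mutant at ZT2, at 594% against 255% to 332%. The part of these cells in the levels of the members was not tested. In the comparisons that leave out WT at ZT2, the ratios of mmu-miR-130a were -0.33 between genotypes at ZT14 and -0.30 between times in the mutant. Both ratios use the mutant array at ZT14, so they are not independent, and scaling by all mouse miRNAs turned them to 0.19 and 0.20. For mmu-miR-301a no bound could be set at ZT14, and its time ratio in the mutant lay within its spots.

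The miRNAs whose course over the 4 arrays was most like that of mmu-miR-130a were mmu-miR-331-3p, mmu-miR-500 and mmu-miR-101a, with root mean square differences of 0.07, 0.08 and 0.10 on the log2 scale after each was centred on its mean. Each was highest in WT at ZT2 and lowest in the mutant at ZT14, as mmu-miR-130a was, which is no separate result since they were picked by these 4 values. With 4 arrays many miRNAs can match a course. Over the 3 arrays other than WT at ZT2, mmu-miR-500 was the 2nd most alike, mmu-miR-101a the 11th and mmu-miR-331-3p the 16th of 122.

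Of 3 other mouse miRNAs with AGUGCA or GUGCAA within bases 1 to 9, found among the 393 of 611 with a RefSeq entry by name, mmu-miR-19a and mmu-miR-19b were detected on all arrays and mmu-miR-291b-3p on none. The mutant to WT log2 ratio was -0.11 for mmu-miR-19a and 0.09 for mmu-miR-19b at ZT2, and 0.06 and 0.14 at ZT14. From ZT2 to ZT14, mmu-miR-19a went from 29.7% to 16.6% in WT and from 27.6% to 17.3% in the mutant, log2 ratios of -0.84 and -0.67. Those of mmu-miR-19b were -0.54 and -0.50, so both had larger time ratios than any of the 4 members detected on all arrays, with 0 of them past 2-fold.

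Other miRNAs known to act on ABCA1 or the LDL receptor were set beside the members. Of 12 on the list, 9 were detected on at least 1 array. None was 2-fold apart between the genotypes, where 8.25% (ZT2) and 13.4% (ZT14) of all detected miRNAs were. The medians were -0.04 at ZT2 (9 measured) and -0.15 at ZT14 (7 measured), beside -0.07 and -0.03 over all miRNAs. The ZT14 median leaves out mmu-miR-33 and mmu-miR-96, undetected in WT at ZT14, whose bounds were higher in the mutant, at 0.54 and 0.64. Between the times 0 of the list were 2-fold apart in WT and 1 was in the mutant, beside 7.73% and 13.5% of all detected miRNAs. That 1 was mmu-miR-144, a miRNA of red blood cells, which went from 14.5% at ZT2 to 5.33% at ZT14 (log2 ratio -1.45).

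The deposited scanner totals need care for mmu-miR-148b. Its total signal on the WT arrays was 2684 units at ZT2 and 1474 at ZT14, and on the mutant arrays 2261 and 2198. Of these its own detected probe gave 40.5 and 27.1 units on the WT arrays and 38.9 and 40.8 on the mutant arrays, and the rest equalled, within 0.007 units, the total of mmu-miR-148a on the same array. The total of mmu-miR-148b is therefore nearly all mmu-miR-148a signal, and in that column the pair are not independent measurements. The spot values used above do not carry this sum, nor does the log2 table that the authors deposited, where mmu-miR-148b stood at 1.16 (WT) and 2.01 (mutant) for ZT2, and at 8.08 (WT) and 8.67 (mutant) for ZT14. That table equals log2 of the summed detected probes plus 1 number per array. The number was -4.18 (WT) and -3.27 (mutant) on the ZT2 arrays and 3.32 on both ZT14 arrays. Its levels are set apart by those numbers between the time points and, at ZT2, between the genotypes.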

How the data were processed

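The 4 arrays, 1 for each genotype (WT, *Clock* mutant) and time point (ZT2, ZT14) of liver RNA, shared 1 slide and 1 scan. The authors deposited the output of Agilent Feature Extraction 10.7.1.1, with a background-subtracted intensity per spot and detection calls, and a table of log2 values per miRNA. Precision is limited by the number of arrays and, for faint miRNAs, by signal over background. No spot was saturated.

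Intensities of spots without outlier flags (3.23% to 3.51% were left out) were averaged per probe and then per miRNA. Each was divided by its array's 75th percentile, taken over 123 mouse miRNAs that every array detected, and log2 was taken. Where 1 of 2 arrays lacked detection, the ratio is a bound, with that array's signal replaced by its lowest detected signal where that was higher. Ratios of 2 arrays had no test, and called means at least 2-fold. The spot SD is the within-probe SD over the mean, combined over the arrays compared. Genotype and time point were fitted together with limma 3.58.1 in R 4.3.3, with Benjamini-Hochberg adjustment over the 123 miRNAs. On simulated data for 123 miRNAs the genotype fit called 29 of 30 changed by 1.5 on the log2 scale (SD 0.15 between arrays) and none falsely, which says nothing of smaller changes such as those of the members. Python 3.11.15 (numpy 2.4.6, pandas 2.3.3, matplotlib 3.10.9) did the rest.

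The alternatives were other scalings (none, 75th percentile over all mouse miRNAs, median, spike-ins, quantile), normexp, other summaries of a miRNA, the authors' log2 table, outlier spots kept, other detection calls, floors and thresholds, and for limma other designs, miRNAs and priors and each array left out. Named were the 7 members, their passenger strands, miRNAs with the same or a related seed, a list of 12 cholesterol transport miRNAs, cell type markers and the 3 patterns nearest to the member of widest range. Members and lists were chosen with earlier results of these data known. Sequences and places came from RefSeq for GRCm38.p6, and the arrays' own build is not given in the sources used here.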

Additional observations from a re-analysis of the deposited data

How the results depend on the processing

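The count of members at least 2-fold apart at ZT2 between the genotypes was 1, and it became 0 with scaling by all mouse miRNAs (75th percentile), quantile normalization or normexp, with the authors' table and at a threshold of 3-fold. At ZT14 it was 0, and 1 with the authors' table. Between the times in WT it was 0, and it became 2 without scaling and with spike-in scaling, 1 with the scanner total, with the sum over detected probes and at a threshold of 1.5-fold, and 4 with the authors' table. Between the times in the mutant it was 0, and 5 with the authors' table. The members called by limma were 0 for both factors, and 3 for genotype and 4 for time point with the authors' table, whose values are offset between the arrays. The fits that left out an array held 1 factor only and set 1 array against 2, so that genotype and time point are mixed in them and they do not check the additive fit; they too called 0 members. Over all 123 miRNAs limma called 0 by either factor, and up to 6 for genotype (normexp) and 5 for time point (no scaling) on 4 arrays, 79 and 123 with the authors' table, and in the 1-factor fits on 3 arrays up to 7 (without the mutant array at ZT2) and 13 (without the WT array at ZT14). Of 244 ratios of members under the alternatives, 96 moved by more than their spot SD. Of the 232 measured on both arrays, 57 had the opposite sign to the reported ratio, 32 of them where that ratio lay within its spot SD and 25 where it lay past it, 10 of these with the authors' table. The ranges over the arrays were recomputed under these alternatives, and without WT at ZT2, after the data were seen. Detection from spots well above background left 4 members detected in the mutant at ZT2 and at ZT14, against 5. Over the alternatives on 4 arrays other than the authors' table, the limma adjusted p of mmu-miR-130a for genotype ranged from 0.20 to 0.99. With the authors' table it was 0.091 in limma, for a difference of the opposite sign, 0.36 higher in the mutant. No paired analysis was possible because the groups share only 1 replicate number. The additive fit compares the genotypes with time point as a term.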
